A study of Rattus norvegicus with 8 samples.

Results

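The liver breaks down most surplus amino acids, and 9 genes for that work were followed here: Tat, Hpd and Hgd for tyrosine, Tdo2 for tryptophan, Hal, Uroc1 and Ftcd for histidine, Sds for serine and Agxt for glyoxylate and serine. They were chosen by name, as all non-control probes listed under these gene names in the array files, and make up 9 of 25512 gene names and 19 of 46883 distinct probes. All 9 genes and all 19 probes passed the filter on dim probes. The samples were livers of male Sprague Dawley rats, an outbred laboratory strain, on 1-colour Agilent oligonucleotide arrays. The high-fat group of 4 had been fed a diet labelled as 60% high-fat for 12 weeks, and the control group of 4 a normal diet for 12 weeks. No genotype or drug is labelled for either group, both carry the same weight label of 180 to 200 g, and the high-fat diet was given without limit. Age, hour of killing and feeding state at that time are not labelled. Whether the 4 samples of a group are 4 animals is not stated either, and a p-value here covers only the spread among arrays, which may be technical.

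Each of these enzymes opens or continues a route by which a carbon skeleton is turned into fuel or glucose precursors. Tat, tyrosine aminotransferase, makes hydroxyphenylpyruvate, which Hpd oxidises to homogentisate and Hgd opens to maleylacetoacetate. Tdo2, tryptophan dioxygenase, starts the kynurenine pathway. Hal, histidine ammonia-lyase, makes urocanate, Uroc1 hydrates it, and Ftcd passes the last formimino group to tetrahydrofolate. Sds, serine dehydratase, deaminates serine to pyruvate, and Agxt, alanine-glyoxylate aminotransferase, turns glyoxylate into glycine. Tat, Tdo2 and Sds are textbook examples of liver enzymes induced by glucocorticoids, glucagon, fasting or a protein-rich meal.

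Levels are normalized log2 intensities, where 0 is the 75th percentile of an array's probes that were well above background on all 8 arrays. A level ranks arrays for the same probe and is not set against that of another probe. The results turn on a few genes read by 2 probes each, and their 60-base sequences are shown because 2 probes that share no stretch of bases give separate readings of one transcript. Positions are those of the files on rn4, and a probe without one is listed there as unmapped. The Sds probe placed at chr12:37281886-37281945 and the Hgd probe at chr11:64876550-64876609 run in descending order in the files, which is the minus strand, and the Hpd probe at chr12:34556165-34556224 and the Agxt probe at chr9:92418052-92418111 in ascending order, the plus strand. Each lies within the named gene by the files' annotation, and exon boundaries were not used here. Letters are lower case, and capitals mark the 33 bases that both Agxt probes share. The probes are given in the order placed, then unmapped.
Sds, placed: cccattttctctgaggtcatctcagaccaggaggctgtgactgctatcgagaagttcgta
Sds, unmapped: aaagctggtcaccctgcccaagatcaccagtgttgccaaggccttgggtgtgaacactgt
Hgd, placed: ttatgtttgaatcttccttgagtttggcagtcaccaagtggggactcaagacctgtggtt
Hgd, unmapped: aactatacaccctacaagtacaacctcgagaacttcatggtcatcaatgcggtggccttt
Hpd, placed: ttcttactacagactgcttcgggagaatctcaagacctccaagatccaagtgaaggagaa
Hpd, unmapped: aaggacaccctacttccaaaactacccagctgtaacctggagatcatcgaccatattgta
Agxt, placed: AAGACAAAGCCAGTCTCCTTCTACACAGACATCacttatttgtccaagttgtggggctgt
Agxt, unmapped: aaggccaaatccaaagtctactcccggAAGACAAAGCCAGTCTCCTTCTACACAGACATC
The Sds, Hgd and Hpd pairs share no run of 8 or more bases. The Agxt pair is less independent, since 33 of 60 bases are common to both.

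None of the 9 genes passed an adjusted p of 0.05 in limma, in either direction, where 0.877% of the 18587 genes tested did. At an unadjusted p under 0.05, 4 of 9 genes were higher on the high-fat diet (Sds, Hgd, Hpd and Uroc1) and 0 lower, where 7.24% of all genes tested were higher. The same 4 genes were those whose high-fat values lay wholly above the control values, and 4.88% of all genes tested did so. The log2 change was positive for 7 of 9 genes, with Tdo2 at nearly 0 among them and of either sign under other settings. The median was 0.27 (0.45 without the 2 dimmest arrays, a setting added after seeing the data), beside 50.6% positive and a median of 0.0040 over all genes tested. The genes were chosen with earlier results known and are not independent of one another, so these shares carry no test.

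**Figure D1:**
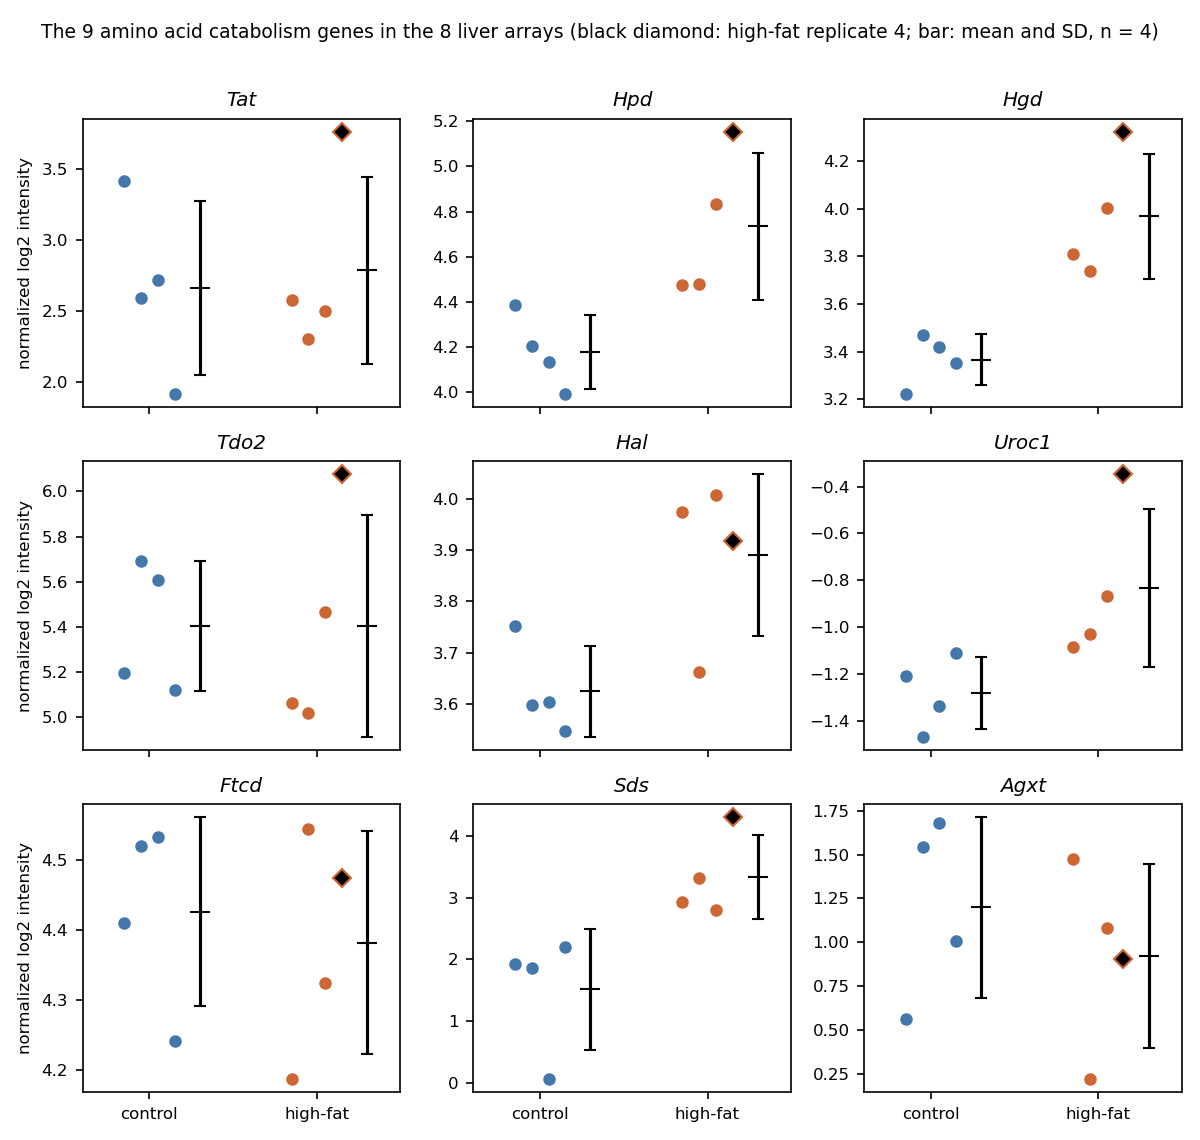
Normalized log2 intensity (vertical axis, a separate scale for each gene) of the 9 genes in the 4 control and 4 high-fat livers, 1 point per array, with the mean and SD beside each group. Sds, Hgd, Hpd and Uroc1 have no overlap between groups, and high-fat replicate 4, the black diamond, is the highest of 8 arrays for 6 of the 9 genes.

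Sds, which feeds serine carbon into pyruvate, had the widest difference. Its values were 1.93, 1.87, 0.067 and 2.21 in control replicates 1 to 4 and 2.93, 3.31, 2.80 and 4.30 in high-fat replicates 1 to 4. Control replicate 3 stood far below the other controls, high-fat replicate 4 stood above every other array, and the groups did not overlap. The mean went from 1.52 ± 0.98 to 3.33 ± 0.68 (SD, n = 4 per group), a log2 change of 1.82 (95% interval 0.66 to 2.98), or 3.52-fold (adjusted p = 0.148 by limma). The unmapped probe, in a separate stretch of the transcript, read -0.10 to 2.18 in controls and 2.70 to 4.12 on the diet, a log2 change of 1.93 (adjusted p = 0.124 by limma), again with no overlap. Over the 8 arrays both Sds probes followed each other with a Pearson r of 0.994, so the low control and the high diet array were seen by both. Without high-fat replicate 4 the Sds change was 1.495 on the log2 scale, with an interval from 0.34 to 2.65, and without control replicate 3 it was 1.33.

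In the tyrosine route, the 2 middle steps had no overlap between the diets by their brighter probes, and the first step overlapped. Hgd, which opens the homogentisate ring, measured 3.22, 3.47, 3.42 and 3.35 in controls and 3.81, 3.74, 4.002 and 4.32 on the high-fat diet. The lowest diet value of Hgd lay above the highest control, and controls spread by only 0.11 (SD, n = 4). The log2 change was 0.60, from 0.24 to 0.96 as a 95% interval (adjusted p = 0.126 by limma), which is 1.52-fold. Its unmapped probe gave 0.82 (adjusted p = 0.240 by limma), with control replicate 1 at 0.59 against 1.67 to 1.80 in the other controls. There high-fat replicate 2, at 1.79, fell just under control replicate 2, at 1.80, so this probe's groups overlapped.

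Hpd, the dioxygenase just before Hgd, measured 4.39, 4.20, 4.14 and 3.99 in controls and 4.48, 4.48, 4.83 and 5.15 on the high-fat diet. The groups were separated by a narrow gap between control replicate 1 and high-fat replicates 1 and 2. Hpd had a log2 change of 0.56, with adjusted p = 0.207 by limma, or 1.47-fold (95% interval on the log2 scale 0.14 to 0.97). The second Hpd probe gave 0.57 (adjusted p = 0.256 by limma), but high-fat replicate 2, at 3.365, lay just under control replicates 1 and 3, at 3.374 and 3.376. By the first Hpd probe the difference was 0.18 in slide row 1 and 0.93 in slide row 2. Row 1 held replicates 1 and 2 of both groups, and row 2 replicates 3 and 4. By the second Hpd probe rows 1 and 2 gave 0.28 and 0.85. For Hgd rows 1 and 2 gave 0.43 and 0.78, and for Sds 1.22 and 2.41, by their brighter probes, positive in both. Row 2 holds high-fat replicate 4 and, for Sds, the low control replicate 3, so row and single arrays cannot be told apart.

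Tat, the first and rate-setting enzyme of the route, measured 3.41, 2.59, 2.72 and 1.92 in controls and 2.58, 2.31, 2.50 and 3.76 on the high-fat diet. High-fat replicate 4 and control replicate 1 were the highest arrays, and the other 3 diet arrays lay inside the control range. The log2 change was 0.13, with a wide interval that ran from -0.76 to 1.02 (adjusted p = 0.920 by limma). It turned to -0.20 without high-fat replicate 4 and was -0.56 in slide row 1 and 0.81 in slide row 2. A second Tat probe, at chr19:39863848-39863907, had high-fat replicate 4 highest as well, at 1.13 against -0.29 to 0.56 in the other 7 arrays, and a log2 change of 0.25 (adjusted p = 0.740 by limma).

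Tdo2, which commits tryptophan to kynurenine, showed the same single array. It measured 5.20, 5.69, 5.61 and 5.12 in controls and 5.06, 5.02, 5.46 and 6.07 on the high-fat diet. High-fat replicates 1 and 2 were the lowest arrays of all and high-fat replicate 4 the highest, so the group means were 5.405 and 5.405. The log2 change of 0.00020 had a 95% interval from -0.59 to 0.59 (adjusted p = 0.9998 by limma), so a difference within those bounds in either direction was not resolved. Without high-fat replicate 4 it was -0.22. The second Tdo2 probe gave -0.064 (adjusted p = 0.945 by limma), with that array again at the top.

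Of the 3 histidine enzymes, Uroc1 had no overlap between the diets by its brightest probe, and Hal and Ftcd overlapped. Hal measured 3.75, 3.60, 3.60 and 3.55 in controls and 3.97, 3.66, 4.01 and 3.92 on the high-fat diet, with only high-fat replicate 2 inside the control range. Its log2 change was 0.27, from -0.025 to 0.56 (adjusted p = 0.369 by limma), and 0.26 without high-fat replicate 4. A second Hal probe that shares 44 bases with the first gave 0.29 with no overlap between the groups (adjusted p = 0.293 by limma).

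Uroc1, the urocanate hydratase, measured -1.21, -1.47, -1.34 and -1.11 in controls and -1.09, -1.03, -0.87 and -0.35 on the high-fat diet. The groups did not overlap, though control replicate 4 and high-fat replicate 1 nearly met. The log2 change of 0.45 (0.024 to 0.87; adjusted p = 0.299 by limma) was 0.29 without high-fat replicate 4, more than 1.5 times smaller and with an interval from -0.055 to 0.63. Uroc1 was the least certain of the 9 in its probes. Its brightest probe is listed under a predicted transcript matched to the name Uroc1, and its other probes matched no RefSeq name. A second probe was well above background on 7 arrays and gave 0.82 (adjusted p = 0.346 by limma), the third on 4 arrays and gave 0.28 (adjusted p = 0.785 by limma), and the probes' correlations over the 8 arrays were 0.46, 0.64 and 0.35. All 3 changes were positive with all arrays, and only the first probe's groups were apart. The third probe was well above background on 1 control and 3 high-fat arrays, so its sign adds no separate support. It gave 0.091 without high-fat replicate 4 and -0.15 in slide row 1.

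Ftcd, which ends the histidine route, measured 4.41, 4.52, 4.53 and 4.24 in controls and 4.19, 4.54, 4.32 and 4.47 on the high-fat diet. The 2 groups covered the same span. Its log2 change was -0.044, from -0.35 to 0.26 (adjusted p = 0.918 by limma), and a second probe sharing 25 bases gave 0.012. That interval is narrower than those of Tat and Tdo2.

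Agxt, the glyoxylate enzyme, was the one gene besides Ftcd with a negative value. It measured 0.57, 1.54, 1.68 and 1.005 in controls and 1.48, 0.22, 1.08 and 0.90 on the high-fat diet. Control replicate 1 and high-fat replicate 2 were the lowest arrays and the groups overlapped throughout. The log2 change was -0.28, from -1.02 to 0.46 (adjusted p = 0.745 by limma), and lay between -0.49 and -0.045 when 1 array at a time was left out. Both probes, with their shared stretch, had a Pearson r of 0.997, so the wide spread within groups was the same for both.

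**Figure D2:**
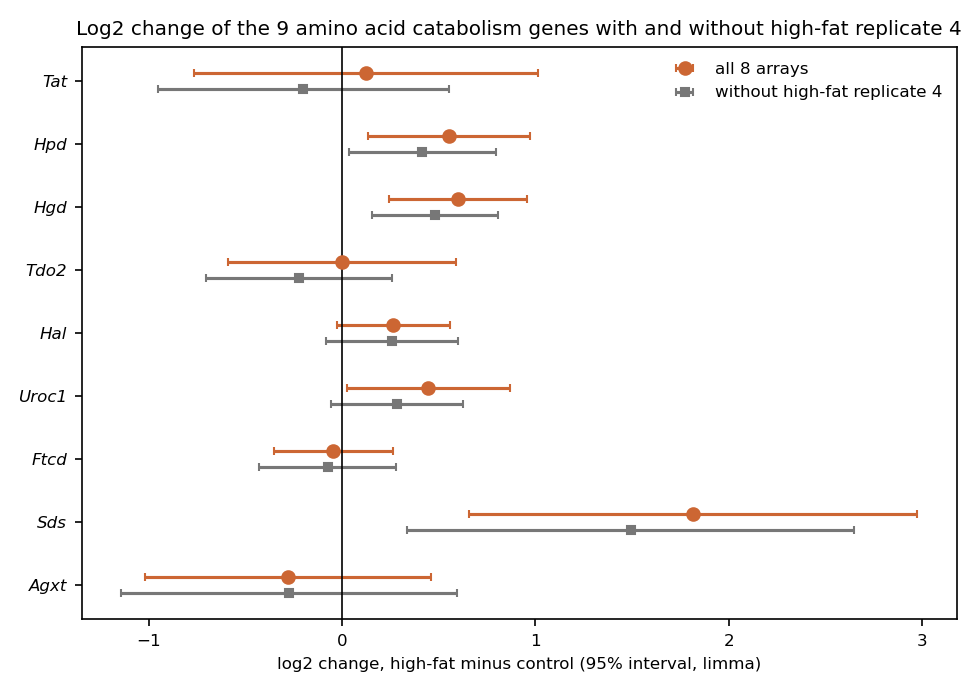
Log2 change from control to the high-fat diet (horizontal axis) with its 95% interval from limma, for all 8 arrays (circles) and without high-fat replicate 4 (squares). By each gene's brightest probe, the intervals of Sds, Hgd and Hpd lie above 0 in both fits, and that of Uroc1 in the first only. Tat and Tdo2 move to negative values in the second.

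High-fat replicate 4 weighed unequally on the 9 genes. It exceeded the mean of the other 3 high-fat arrays by 1.30 for Tat, 1.28 for Sds, 0.89 for Tdo2, 0.65 for Uroc1, 0.56 for Hpd and 0.47 for Hgd on the log2 scale. For these 6 genes it was the highest of the 8 arrays, where it was so for 14.5% of all genes tested. For Ftcd, Hal and Agxt the same distance was 0.12, 0.036 and -0.022. Of the 43 other genes of these pathways it was the highest array for 8, among them Got1, a cytosolic aminotransferase, at 4.31 against -0.10 to 2.15, picked after its values were seen. Without this array the brighter probes of Sds, Hgd and Hpd still had intervals above 0, with adjusted p of 0.3002, 0.236 and 0.371 by limma. The second Sds probe did so too, from 0.47 to 2.81. The second Hgd probe, from -0.048 to 1.43, and the second Hpd probe, from -0.016 to 0.79, had intervals that included 0.

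**Figure D3:**
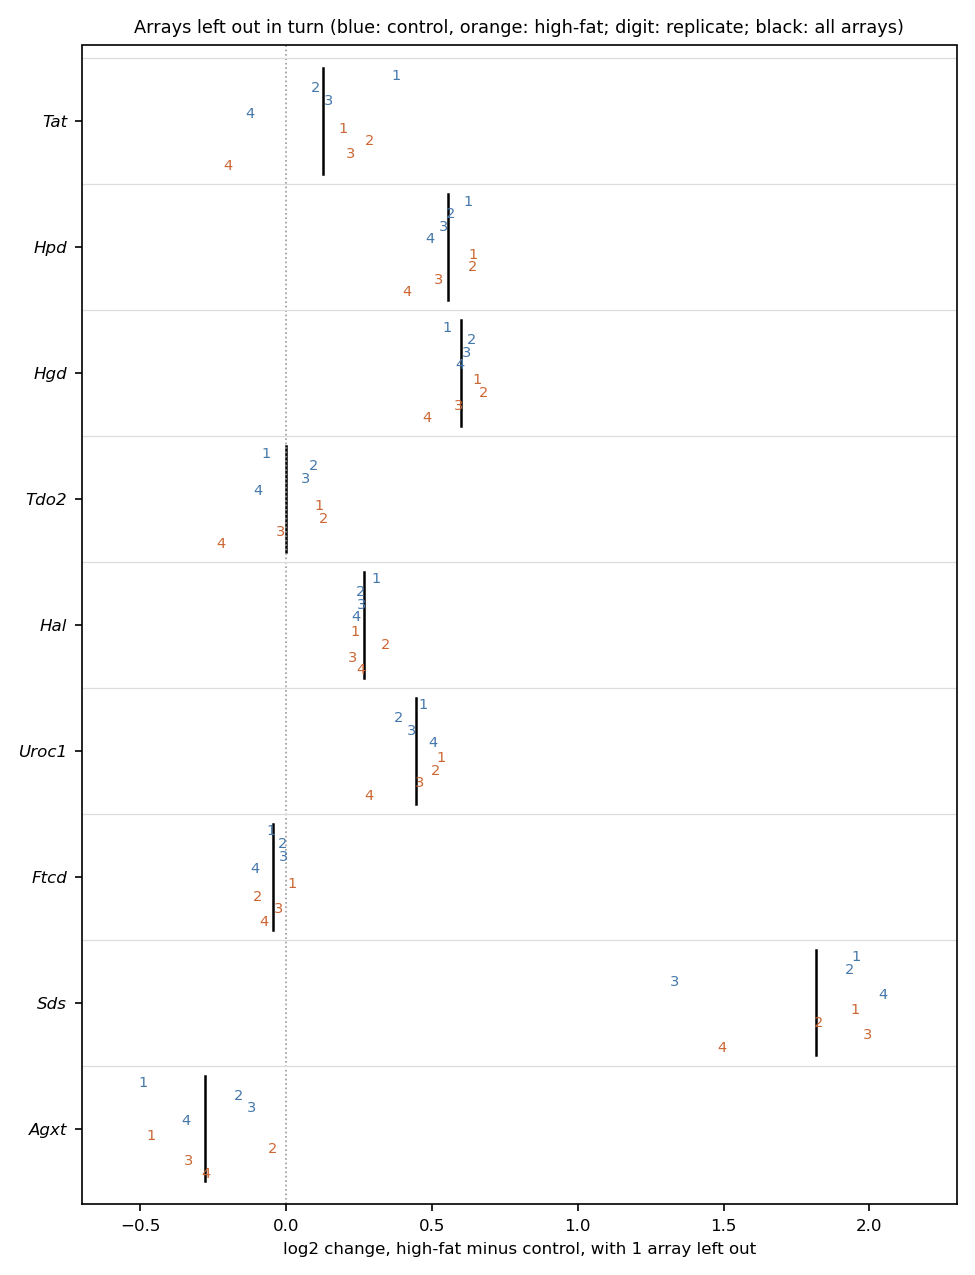
Log2 change from control to the high-fat diet (horizontal axis) for each gene when 1 array is left out, with digits for the replicate (blue control, orange high-fat) and a black line for all arrays. High-fat replicate 4 gives the lowest value for Tat, Hpd, Hgd, Tdo2 and Uroc1, control replicate 3 gives the lowest for Sds, and Sds, Hgd, Hpd, Hal and Uroc1 stay above 0 throughout.

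The neighbouring enzymes of the same routes were taken as 4 lists of 50 genes in all, of which 43 were tested. Of these, 1 passed the adjusted threshold, higher, and 0 lower, where 0.877% of all genes tested passed in either direction. At an unadjusted p under 0.05, 8 were higher and 0 lower, where 7.24% of all genes tested were higher. High-fat values lay wholly above the controls for 6, beside 4.88% of all genes tested. The log2 change was positive for 28, with a median of 0.13, beside 50.6% and a median of 0.0040 over all genes tested. The 1 gene past the threshold was Kynu, kynureninase, which cleaves kynurenine further down the tryptophan route. It measured 1.39, 1.65, 1.34 and 1.43 in controls and 2.45, 2.22, 2.34 and 2.23 on the high-fat diet. Its groups were far apart and tight, with 1.45 ± 0.14 and 2.31 ± 0.11 (SD, n = 4 per group), and the log2 change was 0.86, from 0.57 to 1.15 (adjusted p = 0.032 by limma). High-fat replicate 4 was not high for Kynu, and the log2 change was 0.89 without it. The size held from 0.79 to 0.92 over 22 other settings, while the call passed in 10 of them and was lost each time 1 array was left out (adjusted p from 0.053 to 0.098 by limma).

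The tryptophan list as a whole, Kynu included, was mixed in sign. Of 8 genes tested, 4 were positive and the median log2 change was 0.034, with Aadat, an aminotransferase for kynurenine, at 0.33, Haao, which oxidises hydroxyanthranilate, at -0.28, and Afmid, which releases kynurenine from its formyl form, at -0.95 (adjusted p = 0.373, 0.504 and 0.569 by limma). Afmid ranged from 1.18 to 4.12 in controls and from 1.31 to 3.49 on the diet, with high-fat replicate 4 the one high diet array. So 1 of these 8 genes, Kynu, passed the adjusted threshold, where 0.877% of all genes tested did. The intervals of the others included 0, so their changes were not resolved in either direction.

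Of the tyrosine and phenylalanine list, 11 genes were tested, 0 passed, 9 were positive and the median was 0.26. Gch1, which starts the synthesis of tetrahydrobiopterin, had 0.63, Got2, the mitochondrial aspartate aminotransferase, 0.44, and Gstz1, the isomerase that follows Hgd, 0.32 (adjusted p = 0.209, 0.276 and 0.307 by limma). Gchfr, the feedback partner of Gch1, had 0.26 (adjusted p = 0.352 by limma), with diet values of 2.99 to 3.23 wholly above the controls at 2.72 to 2.96. Fah, the last enzyme of the route, named after its value was seen, had a log2 change of 0.019 (adjusted p = 0.967 by limma).

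The histidine and folate list held 7 tested genes, of which 2 were positive and 0 had an unadjusted p under 0.05, with a median of -0.13. Mthfd1, which interconverts folate one-carbon units, had -0.29, Amdhd1, the step after Uroc1, 0.39, Aldh1l1, formyltetrahydrofolate dehydrogenase, 0.23, and Hdc, which makes histamine, -0.56 (adjusted p = 0.408, 0.443, 0.620 and 0.642 by limma). All 4 overlapped between the groups.

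The serine, threonine, glycine and glyoxylate list held 17 tested genes, of which 13 were positive and 0 passed, with a median of 0.13. Its 4 genes with the smallest p had high-fat values wholly above the controls, where 4.88% of all genes tested did. Gnmt, glycine methyltransferase, measured 3.19 to 3.73 in controls and 3.77 to 4.47 on the diet, a log2 change of 0.61. Prodh2, hydroxyproline dehydrogenase, had 0.57, Dmgdh, dimethylglycine dehydrogenase, 0.55, and Gcsh, the carrier protein of the glycine cleavage system, 0.37 (adjusted p = 0.147, 0.182 and 0.222 by limma; 0.196 for Gnmt). Among them are enzymes that make or use glycine and its methylated forms, as Agxt does, and Agxt itself had a negative value.

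**Figure D4:**
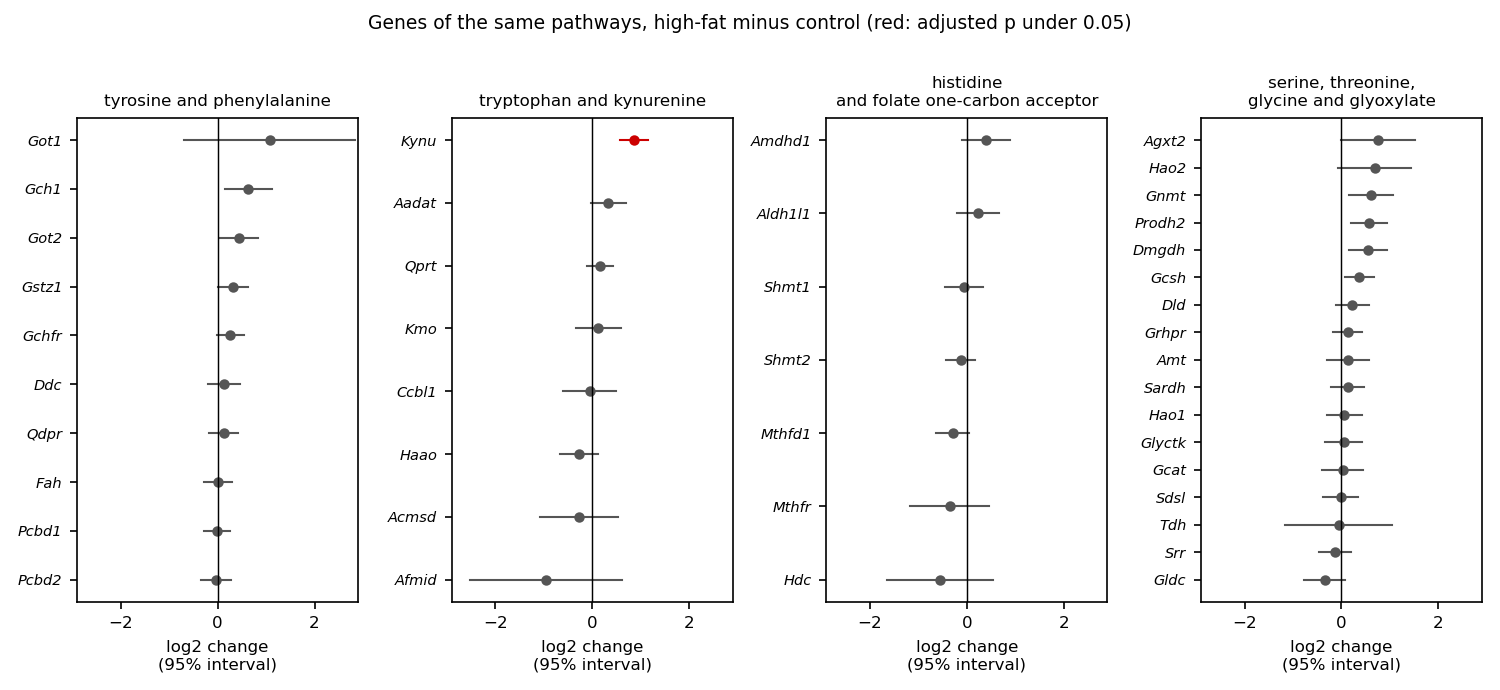
Log2 change from control to the high-fat diet with its 95% interval (horizontal axis) for 42 of the 43 tested genes of the 4 pathway lists, none of them among the 9, sorted by size. Kynu, in red, is the 1 gene past the adjusted threshold, and most tyrosine and serine genes lie to the right of 0.

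Some other measures moved with the diets in the same livers, and their part in the results above was not tested. Hepatocyte markers were well above background on all arrays for 10 of 10 genes, with a mean level of 4.81 to 5.16 in controls and 4.87 to 5.17 on the diet. Periportal hepatocyte markers, none among the 9 genes, had a mean level of 3.19 to 3.35 in controls and 3.47 to 3.66 on the diet, with 6 of 9 positive. Pericentral markers had 7 of 10 positive, with -0.14 to 0.17 in controls and 0.079 to 1.19 on the diet, high-fat replicate 4 being the highest. In this list Gulo and Oat, which makes glutamate semialdehyde from ornithine, rose by 0.93 and 1.44 on the log2 scale (adjusted p = 0.042 and 0.049 by limma). No other gene of the list passed the threshold. Log2 changes over the list ran from -0.47 to 1.47, with 3 of 10 negative. Of the clock genes 13 of 15 were positive, and their mean level was -3.86 to -3.53 in controls and -3.48 to -3.06 on the diet, with no overlap. Erythroid markers were positive in 3 of 4, at -0.024 to 1.11 and 1.29 to 1.501, with control replicate 3, the low array for Sds, at the bottom.

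Markers of other cells were mixed. Of the lists below, only the lymphocyte list had mean levels without overlap between the groups and a gene past the adjusted threshold, 1 gene, lower. Kupffer cell and macrophage markers were lower in 9 of 9 genes, with 1.34 to 1.84 in controls and 0.58 to 1.41 on the diet. Cholangiocyte markers were lower in 5 of 5, at -4.08 to -3.05 and -4.53 to -4.01, and lymphocyte markers in 5 of 7, at -4.02 to -3.76 and -4.89 to -4.13. The -4.89 is that of high-fat replicate 4, where a lymphocyte marker brighter than the list's mean had no value. That array therefore averages fewer genes, and its mean is not fully comparable with the others. Stellate cell markers were lower in 4 of 7, at -2.80 to -2.65 and -2.95 to -2.55, and sinusoidal endothelial markers were higher in 5 of 7, at -1.22 to -0.72 and -0.89 to -0.51. In bulk liver, fewer cells of a type and less RNA per cell cannot be told apart.

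The list of genes that answer to glucocorticoids, glucagon and fasting did not separate the diets, with 11 of 18 positive, a median of 0.066 and mean levels of 0.28 to 1.25 in controls and 0.24 to 1.39 on the diet. Its highest arrays were high-fat replicate 4, at 1.39, and control replicate 1, at 1.25, which were also the highest for Tat by its brighter probe. By the second Tat probe control replicate 1, at 0.26, lay below high-fat replicate 1, at 0.56, and control replicate 3, at 0.36. For Tdo2 and Sds control replicate 1, at 5.20 and 1.93, was not the highest control, which read 5.69 and 2.21. The feeding state of single animals is not given in the labels, and its part in the Tat values was not tested.

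For each of the 9 genes, the 3 gene symbols most like it were sought among 11362 by Pearson r over the 8 arrays, as a description without a test. For Sds they included Mcm10 and Cyp4b1, with r of 0.983 and 0.965 and Spearman rho of 0.976 and 0.952. Mcm10, a replication factor, had a log2 change of 1.996 (adjusted p = 0.176 by limma), close in size to Sds. For Hgd they were Acyp2, Defa and Zfp868 (r of 0.976, 0.973 and 0.972), for Hpd Rasa2, Nckap1 and Mosc2 (0.984, 0.981 and 0.976) and for Uroc1 Ube2cbp, Afg3l2 and Hsdl2 (0.972, 0.966 and 0.965). For Tat they were Shisa5, Smc5 and Gorab (0.955, 0.946 and 0.936), for Tdo2 Olr1708, Adcy2 and Nudt2 (0.934, 0.931 and 0.928) and for Hal Prr16, Clec1b and Nnt (0.998, 0.937 and 0.937). For Ftcd they were Cdc6, Tecta and Nxf7 (0.943, 0.927 and 0.926) and for Agxt Stard5, Vdr and Syt2 (0.982, 0.979 and 0.967). With 8 arrays and 11362 candidates, high values of r are common, and all points share the same slide.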

How the data were processed

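RNA of 4 high-fat and 4 control rat livers, 500 ng each, was primed with oligo-dT and labelled with Cy3 as cRNA, per the labels' protocols. Sample titles gave the groups and replicate numbers. Spot intensity values, and the flags of each spot, came from Agilent Feature Extraction 10.7.3.1, per the file headers. The value table deposited by the authors is in log2, and its scaling is not given in the sources used here. Each of its columns followed the scanner values of its array, scaled on all non-control probes at their 75th percentile, with a correlation of at least 0.999, so it is on a log2 scale with brighter spots higher and no centring per probe. Its column medians were -3.10, -3.21, -3.14 and -3.17 for control replicates 1 to 4 and -3.14, -3.20, -3.16 and -3.20 for high-fat replicates 1 to 4.

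Control spots and outlier spots were left out, spots of a probe averaged, and log2 processed signals set relative to each array's 75th percentile over the 47.9% of probes well above background on all 8 arrays. An array had 50.4% to 71.9% of its probes well above background, no spot was saturated, and the number of arrays limits the precision. Probes that reached this on 4 or more arrays, 31535 in all, were fitted in R 4.3.3 with limma 3.58.1 (lmFit, eBayes). P-values were adjusted over all of them by Benjamini-Hochberg, and 286 passed the threshold of 0.05. A gene stood for its tested probe with the highest mean. The fit was tested on simulated data. RefSeq names (GRCr8 table, names only) matched 17 of the 19 probes' accessions, and the unmatched probes were both for Uroc1. All arrays lay on 1 slide with 1 scan time, 2 of each group in each of its 2 rows.

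The 9 genes and the lists were chosen with earlier results of these data known. Besides the 9 with every probe, the text names list genes past the threshold and up to 4 per list with the smallest p, up to 2 of a marker list, and the 3 genes most like each of the 9; 2 genes that this rule or a figure would show are not reported here. Alternatives changed background correction, scaling, the dim filter, the variance model, weights, blocks, the probe summary, the authors' table in place of scanner values, and each array left out. Leaving out the 2 dimmest arrays, and high-fat replicate 4 with control replicate 3, were added after seeing the data.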

Additional observations from a re-analysis of the deposited data

Results flagged for a closer look

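Among the 46 sets of 4 arrays checked for an array far from the others, 3 stood out, where chance alone gives about 1 in 20. The unmapped Hgd probe read 0.59 in control replicate 1 against 1.67 to 1.80 in the other controls, while the placed Hgd probe gave 3.22 there against 3.35 to 3.47. The placed Sds probe read 0.067 in control replicate 3 against 1.87 to 2.21 in the other controls, and the second Sds probe was also lowest there, at -0.10. The mean level of the tryptophan and kynurenine list was 1.12 in high-fat replicate 4 against 0.62 to 0.68 in the other high-fat arrays. Of its genes named above, Afmid read 3.49 there against 1.31 to 1.41 in the other high-fat arrays. Aadat was also the highest there, at 2.11. Kynu, at 2.23, and Haao, at 1.72, lay within the range of the other high-fat arrays, so the list did not rise as a whole.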

How the results depend on the processing

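None of the 9 genes passed an adjusted p of 0.05 under any of the 22 alternatives fitted, and the lowest adjusted p among them was 0.063 for Hgd and 0.087 for Sds. Sds kept a positive log2 change from 1.01 to 2.09, Hgd from 0.48 to 0.71, Hpd from 0.40 to 0.71, Uroc1 from 0.27 to 0.56 and Hal from 0.23 to 0.34, and Agxt a negative one from -0.67 to -0.045. The median over the 9 genes, 0.27 with all arrays, ran from 0.23 to 0.38 with 1 array left out, and was 0.45 without the 2 dimmest arrays. The sign turned for the 3 genes near 0. Tat was -0.18 without high-fat replicate 4 and control replicate 3, -0.56 within slide row 1, and -0.20 to 0.38 with 1 array left out. Tdo2 was -0.018 after normexp, -0.014 with scaling over all non-control probes, -0.016 on the median, -0.011 from the authors' table, -0.054 with array weights, -0.16 without high-fat replicate 4 and control replicate 3, -0.032 as the mean of its probes, -0.41 within slide row 1, and -0.22 to 0.13 with 1 array left out. Ftcd was 0.0074 after quantile normalization, 0.015 without the 2 dimmest arrays, 0.011 within slide row 2, and -0.11 to 0.021 with 1 array left out. The count of 1 other pathway gene past the threshold, Kynu, became 0 without the filter on dim probes, with the replicate block, in both added settings and in each fit with 1 array left out (0 to 0). The 286 probes past the threshold over the whole array became 10 without that filter, 529 when well above background on all arrays, 545 with a trended and robust variance, 171 with slide row as a block, 25 without the 2 dimmest arrays, 9 without high-fat replicate 4 and control replicate 3, and 23 to 154 with 1 array left out. With the replicate number as a block 1 probe passed. Same-numbered arrays had deviation correlations of -0.12, 0.26, 0.23 and 0.012, and differently numbered ones ran from -0.34 to 0.29. Those correlations cannot settle whether the numbers pair the samples. For these moves the cause was not tested. Spots near background limit the third Uroc1 probe.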
